A study of Mus musculus with 16 samples.

Results

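The RNA of mouse macrophages given apoptotic cells for 45 min was compared, over all genes counted, with that of the same macrophages kept alone. The comparison used the 4 libraries whose columns name 45 min with apoptotic cells and the 4 whose columns name macrophages alone, which are 8 of the 16 libraries in the series. Per the labels, the macrophages are of the Hoxb8 line from bone marrow. Such lines are progenitors kept dividing by the transcription factor Hoxb8 until it is withdrawn and they mature, and all groups share the 1 line, with no genotype, strain or further agent named. The 45 min group received dying Jurkat cells, which are human T cells of a leukaemia line, and the group alone received none. Groups of 4 libraries each at 90 and 180 min with apoptotic Jurkat cells entered the same model and show where a level stood later. The series title places the work beside efferocytosis and the release of paused RNA polymerase.

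Efferocytosis is the uptake of dying cells by a phagocyte, which recognises lipids and proteins on their surface, draws them in by rearranging actin and digests them in lysosomes. Immediate early genes, among them those of the EGR, AP-1 and NR4A transcription factors, are switched on within minutes of a stimulus from proteins already in the cell. Many of them carry an RNA polymerase II that has stopped just past the start site and is released by the kinase CDK9, and many make short-lived RNAs that decay factors soon remove.

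Within 45 min the macrophages had more RNA of the early response factors, of several chemokines and cytokines and of some phosphatases and decay factors that curb them, and less RNA of noncoding genes inside introns and of mitochondrial genes. Of the 12 mitochondrial genes tested, edgeR called 8 lower, DESeq2 2 and edgeR with a length trend fitted on all genes 0. Library totals were 24378422 to 41688999 counts at 45 min and 18681977 to 27654812 counts alone. The expression filter kept 14168 genes. At a Benjamini-Hochberg adjusted p under 0.05 in edgeR's quasi-likelihood test, 664 genes (4.69%) rose and 865 (6.11%) fell. Most changes were small, and 15 genes (0.106%) rose and 208 (1.47%) fell at least 2-fold. The 4 and 4 libraries did not overlap in level for 2401 genes (16.9%), and the largest changes named were taken only from such genes. Leaving out 1 library gave 541 to 767 genes lower, with 547, 566 and 541 without library 1, 3 or 4 of 45 min and 556 without library 2 of macrophages alone. Whether the libraries of a group are separate cultures is not stated in the labels, and p-values then cover no more than the spread between these samples, which can be technical. The harvest time of the macrophages alone is not stated either, so the effect of time in culture and that of apoptotic cells cannot be told apart. In bulk RNA, fewer cells of a type and less RNA per cell cannot be told apart either.

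The labelled cell type was checked against its markers. All 12 macrophage markers passed the filter, with summed levels of 18357 to 19530 CPM (counts per 1000000 counted, here without scaling) per library at 45 min and 17306 to 17816 CPM alone, and 4 of the 12 rose. Lyz2, the lysozyme gene of myeloid cells, rose by 0.23 (SE 0.035) on the log2 scale. The colony-stimulating factor receptor Csf1r stood at 0.05 (SE 0.037) and the surface marker Adgre1 at 0.09 (SE 0.038), neither called. Of 17 T cell or Jurkat markers 4 passed the filter and 0 were called by edgeR, with 1 lower at an unadjusted p under 0.05 and 1 by DESeq2. Their summed level was 14.2 to 15.9 CPM at 45 min and 15.5 to 21 CPM alone, and 9 and 8 of them had a count of 0. Whether human reads reached the mouse counts otherwise was not tested. Neutrophil markers summed to 2.71 to 4.23 CPM at 45 min and 2.66 to 3.85 CPM alone, and dendritic cell markers to 3.38 to 5.54 CPM at 45 min and 2.82 to 4.16 CPM alone. B cell markers summed to 1.15 to 2.85 CPM at 45 min and 1.34 to 1.77 CPM alone, and erythroid or mast cell markers to 0 to 0.288 CPM at 45 min and 0 to 0.195 CPM alone. Progenitor markers summed to 315 to 350 CPM at 45 min and 283 to 311 CPM alone. Of 6 progenitor markers 2 passed the filter and 1 rose, Spi1, which mature macrophages also express. The other was Hoxb8, not called, with 28.1 CPM over the pooled 45 min libraries and 28 CPM over those of macrophages alone.

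Among the 11425 coding genes tested, calls ran with the length of the transcript. In the quintile of shortest summed exon length, 165 to 2530 bases, 238 of 2285 genes rose and 7 fell. In the longest quintile, 7597 to 123179 bases, 26 of 2285 rose and 490 fell. The longest quintile took 22.1% to 22.9% of the counts of a library at 45 min and 24.4% to 24.6% alone, and the shortest took 12.7% to 13.3% at 45 min and 11.8% to 12.1% alone. Neither range overlapped. A smooth trend on exon length and GC content was therefore fitted to each library on coding genes and removed, which left 414 genes (2.92%) higher and 468 (3.3%) lower. Calls still differed by length, with 128 higher and 138 lower in the longest exon quintile and 51 and 13 in the shortest. Span and exon number were not in the trend. Of the 664 genes higher 272 were called again (41%), and of the 865 lower 429 were (49.6%). The same trend fitted on all genes, which was tried after seeing the data, gave 1107 higher and 503 lower. The part of length in a single gene's change was not tested, so the gene lists are given with both counts, as called and with the trend removed. The shares over all genes to set beside list counts are 4.69% higher and 6.11% lower as called. With the trend removed they are 2.92% and 3.3%. Of the 46 lists, 29 had 0 members lower by edgeR. Of their 692 members, 11 were lower at an unadjusted p under 0.05 and 1 was lower by DESeq2.

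**Figure D1:**
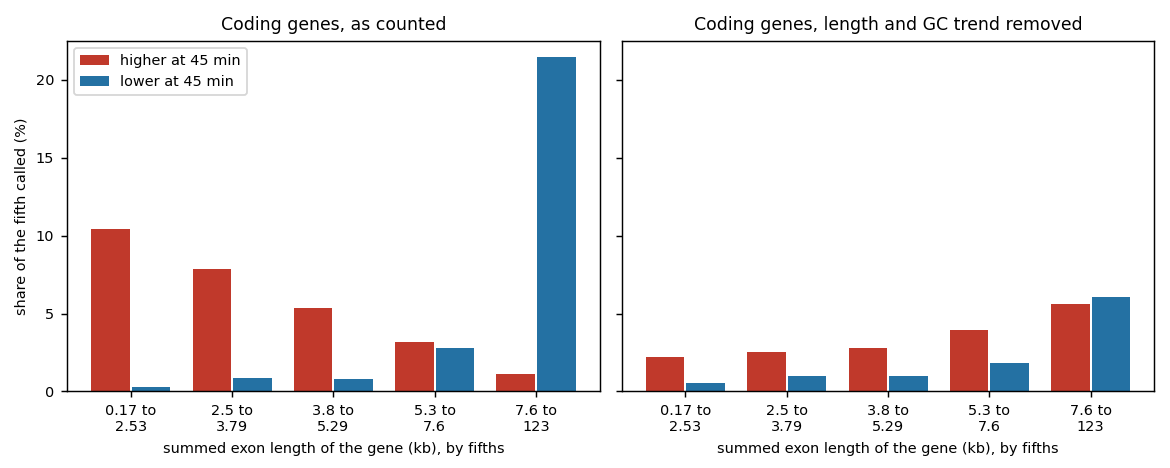
Share of coding genes called higher (red) or lower (blue) at 45 min against macrophages alone, by quintile of summed exon length in kilobases, as counted (left) and with the length and GC trend removed (right). As counted, 21.4% of the longest quintile fell and 10.4% of the shortest rose.

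The early growth response factors, zinc finger proteins that act within the first hour of a stimulus, had the largest rises of any coding genes that met the rule for naming. Egr1 had 74.9, 67.8, 59.3 and 74.0 CPM of the scaled library size at 45 min, against 15.9, 12.7, 12.6 and 16.2 CPM alone. Egr2 had 8.51, 7.52, 6.64 and 8.50 CPM at 45 min, against 1.01, 1.8, 1.51 and 1.72 CPM alone. Egr3 had 6.32, 4.05, 2.43 and 5.04 CPM at 45 min, against 0.108, 0.470, 0.0755 and 0.215 CPM alone. For the 3 genes every 45 min library lay above every library of macrophages alone, which the rule for the largest rises required. Egr3, which is barely counted in macrophages alone, varied most at 45 min. The log2 changes were 2.27 (SE 0.097) for Egr1, 2.39 (SE 0.21) for Egr2 and 4.39 (SE 0.36) for Egr3, the last with an adjusted p = 2.7e-14 in the quasi-likelihood test of edgeR with Benjamini-Hochberg adjustment. Nab1 and Nab2 encode co-repressors that bind EGR proteins and limit them. Nab2 had 9.92, 9.56, 9.28 and 10.1 CPM at 45 min, against 10.3, 7.95, 8.50 and 8.85 CPM alone, so the groups overlapped and it was not called (0.13, SE 0.11). Its mean was 21.7 CPM at 90 min and 26.0 CPM at 180 min. Nab1 was not called either (0.06, SE 0.048). Of the 5 members tested, 3 rose and 0 fell, before and after the trend was removed.

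The promoter of Egr2 is shown because serum response elements, the CArG boxes bound by serum response factor, are the textbook control elements of this family. Each window runs from 250 bases before to 50 bases after a start site. Of 5 listed starts, the first whose window holds a CArG box was taken. It is chr10:67537316-67537615 on the plus strand of GRCm38.p6 (RefSeq), and capitals mark the CArG box at -72 to -63 from the start. Windows of other listed starts hold a different CArG box.
Egr2: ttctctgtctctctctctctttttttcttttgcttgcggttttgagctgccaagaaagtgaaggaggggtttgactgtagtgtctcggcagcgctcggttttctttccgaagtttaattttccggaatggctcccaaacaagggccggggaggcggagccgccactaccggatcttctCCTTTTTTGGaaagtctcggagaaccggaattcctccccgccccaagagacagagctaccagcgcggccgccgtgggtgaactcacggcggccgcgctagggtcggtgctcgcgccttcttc

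AP-1 is a dimer of FOS and JUN family proteins, and the list of its subunits and of the related MAF proteins rose broadly by small amounts. Of 14 members tested, 10 rose and 0 fell, with a median log2 change of 0.33 against 0.0042 over all genes tested, and 6 rose with the trend removed. Fos had 275, 283, 273 and 241 CPM at 45 min, against 178, 167, 158 and 165 CPM alone. The groups did not overlap, and the rise was 0.68 (SE 0.05, adjusted p = 2.22e-16, edgeR's quasi-likelihood test, Benjamini-Hochberg method). Fosb, a close relative of Fos, had 10.3, 10.3, 8.41 and 9.61 CPM at 45 min, against 4.54, 4.15, 3.66 and 3.97 CPM alone. It rose by 1.24 (SE 0.16), the largest change in the list. Junb rose by 0.34 (SE 0.047), with 277, 246, 241 and 247 CPM at 45 min and 209, 190, 200 and 197 CPM alone. Fosl2 rose by 0.35 (SE 0.045). Jun itself moved least of the subunits named, with 197, 184, 186 and 189 CPM at 45 min and 173, 166, 174 and 166 CPM alone, a rise of 0.16 (SE 0.049). Jun was not called with the trend removed (0.06) or without library 1 of 45 min (0.16). Fos averaged 89.0 CPM at 90 min and 123 CPM at 180 min, both under the 167 ± 8.21 CPM of macrophages alone.

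The promoter of Fos is shown for the cyclic AMP response elements known to drive it. The window is chr12:85473640-85473939 on the plus strand of GRCm38.p6 (RefSeq). Capitals mark both copies of the cyclic AMP response core TGACG, which lie at -129 to -125 and at -66 to -62.
Fos: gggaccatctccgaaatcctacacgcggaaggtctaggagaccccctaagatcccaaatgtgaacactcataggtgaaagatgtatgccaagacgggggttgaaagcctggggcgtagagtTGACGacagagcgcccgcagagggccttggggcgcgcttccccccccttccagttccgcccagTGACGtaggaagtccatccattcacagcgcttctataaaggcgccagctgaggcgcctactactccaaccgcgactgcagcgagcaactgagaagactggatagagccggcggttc

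**Figure D2:**
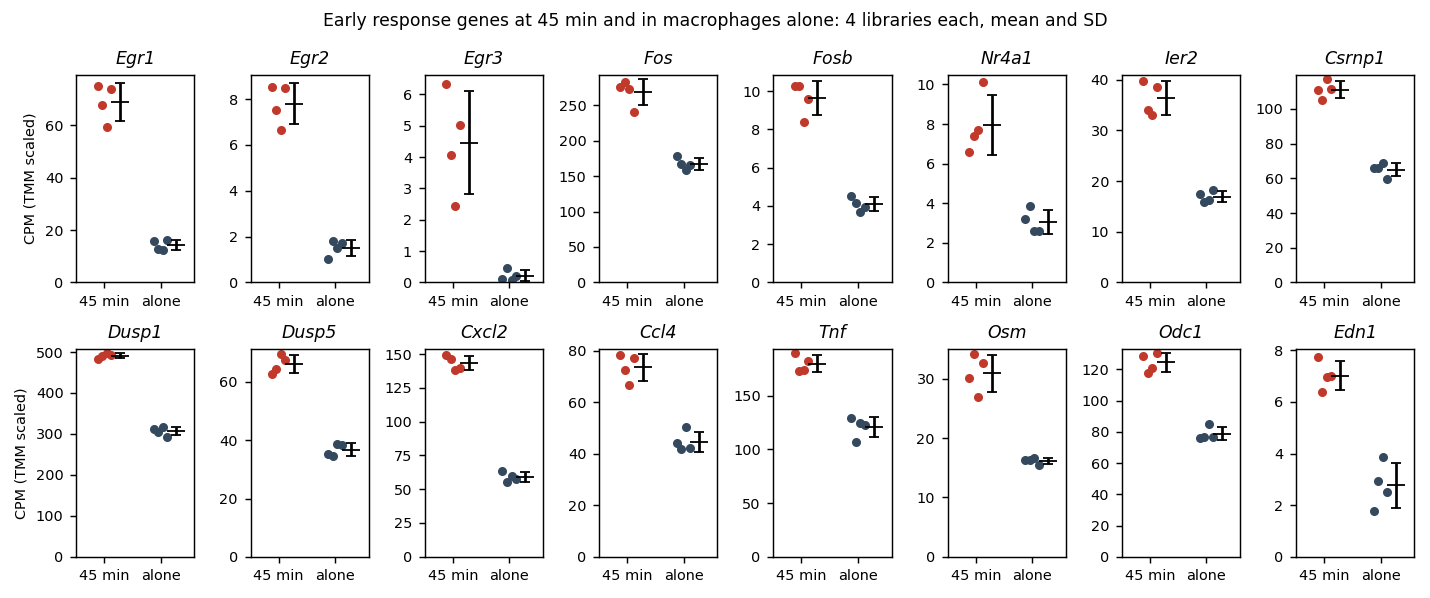
CPM of 16 early response genes in each library at 45 min (red) and in macrophages alone (dark), with the mean and SD of the 4 libraries beside them. The groups are apart for each gene drawn, most widely for the EGR factors and by small amounts for Fos, Tnf and Dusp1.

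NR4A receptors are orphan nuclear receptors whose activity follows their RNA level. Nr4a1 had 6.58, 7.42, 7.71 and 10.1 CPM at 45 min, against 3.21, 3.84, 2.61 and 2.57 CPM alone, with no overlap. Its rise of 1.38 (SE 0.18) was the only call among the 3 members. Nr4a2 (0.47, SE 0.33) and Nr4a3 (0.40, SE 0.41) overlapped between the groups at about 1 to 2 CPM. They averaged 2.52 and 2.62 CPM at 90 min. Of 10 Kruppel-like factors tested 2 rose and 0 fell, and 1 rose with the trend removed. Klf6, the most abundant of those named, averaged 1040 ± 12.6 CPM at 45 min and 907 ± 27.7 CPM alone (SD, n = 4 each), a rise of 0.20 (SE 0.037). Klf4, which takes part in macrophage polarisation, rose by 0.39 (SE 0.11). That call was lost with the trend removed (0.30), with libraries thinned to the smallest total (0.30), without library 3 of 45 min and without library 2 of macrophages alone (0.33 each).

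The other immediate early genes form the longest early list, and 18 of 28 tested rose while 0 fell, with a median of 0.34 and the same counts when the trend was removed. Ier2, a nuclear protein gene named for its immediate early response, had 39.8, 34.0, 33.0 and 38.5 CPM at 45 min, against 17.4, 15.8, 16.2 and 18.2 CPM alone. Ier3, a regulator of survival, had 80.7, 74.4, 72.9 and 78.8 CPM at 45 min, against 49.3, 40.7, 48.5 and 47.0 CPM alone. The groups did not overlap, and the rises were 1.11 (SE 0.094) for Ier2 and 0.73 (SE 0.066) for Ier3. Csrnp1, a nuclear protein induced by AXIN1, had 111, 105, 117 and 112 CPM at 45 min, against 65.8, 65.9, 68.8 and 59.9 CPM alone, and rose by 0.77 (SE 0.058). The polo-like kinase genes Plk2 and Plk3 rose by 0.51 (SE 0.041) and 0.87 (SE 0.097). For Plk2 the 45 min libraries held 419 to 452 CPM and those of macrophages alone 295 to 315 CPM. Phlda1, a pleckstrin-homology protein gene, averaged 14.2 ± 0.51 CPM at 45 min and 8.05 ± 1.34 CPM alone, and rose by 0.82 (SE 0.12). Myc, the growth regulator, had 22.5, 20.5, 19.7 and 18.4 CPM at 45 min, against 13.5, 13.9, 13.9 and 11.7 CPM alone. It rose by 0.61 (SE 0.10) and averaged 32.3 CPM at 90 min and 24.1 CPM at 180 min. The 10 members not called ranged from -0.12 to 0.56.

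Genes that serum response factor controls, many of them for actin and its partners, moved by small amounts. Of 15 tested, 5 rose and 0 fell, and with the trend removed 3 rose and 1 fell. Actg1 and Actb, the cytoplasmic actins, rose by 0.32 (SE 0.048) and 0.17 (SE 0.035). Srf, the factor itself, averaged 49.2 ± 1.83 CPM at 45 min and 40.7 ± 2.45 CPM alone. Its rise of 0.27 (SE 0.072) was not called with the trend removed (0.15).

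Inhibitors of the MAP kinase pathway, which carries many early signals, were among the genes that rose. Of 13 MAP kinase phosphatases and Sprouty or Spred inhibitors tested, 6 rose and 0 fell, and 5 rose with the trend removed. Dusp1, a nuclear phosphatase that inactivates p38 and JNK, had 482, 491, 498 and 492 CPM at 45 min, against 311, 304, 317 and 294 CPM alone. Dusp5, which inactivates ERK in the nucleus, had 62.9, 64.4, 69.6 and 67.6 CPM at 45 min, against 35.1, 34.6, 38.7 and 38.5 CPM alone. The groups lay far apart and the libraries of each were close together. The rises were 0.68 (SE 0.044, adjusted p = 1.79e-18, edgeR's quasi-likelihood test, Benjamini-Hochberg method) for Dusp1 and 0.85 (SE 0.066) for Dusp5. Dusp10, a phosphatase for JNK and p38, rose by 0.46 (SE 0.092) and the receptor kinase inhibitor Spry2 by 0.25 (SE 0.061). Dusp2, a phosphatase of immune cells, averaged 1.71 ± 0.486 CPM at 45 min and 1.14 ± 0.475 CPM alone, and its difference of 0.60 (SE 0.38) was not called.

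The promoters of these phosphatases were chosen for display because each holds a motif near its start, with a different motif marked in each. The presence of these motifs is therefore no result, and the core site TGACG was found for 35.6% of the genes tested. That of Dusp1 is chr17:26508423-26508722 on the minus strand and that of Dusp5 is chr19:53528895-53529194 on the plus strand, both of GRCm38.p6 (RefSeq). In Dusp1 capitals mark a core site TGACG at -191 to -187 and the full cyclic AMP response element TGACGTCA at -143 to -136, which holds the core site on both strands. In Dusp5 they mark a pair of adjacent CArG boxes at -82 to -73 and -72 to -63.
Dusp1: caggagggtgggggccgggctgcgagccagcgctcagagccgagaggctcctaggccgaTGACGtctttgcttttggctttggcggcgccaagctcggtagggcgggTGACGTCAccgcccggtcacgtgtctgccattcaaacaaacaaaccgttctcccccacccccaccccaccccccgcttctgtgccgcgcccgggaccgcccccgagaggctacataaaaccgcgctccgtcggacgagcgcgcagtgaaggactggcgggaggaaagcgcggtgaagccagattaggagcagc
Dusp5: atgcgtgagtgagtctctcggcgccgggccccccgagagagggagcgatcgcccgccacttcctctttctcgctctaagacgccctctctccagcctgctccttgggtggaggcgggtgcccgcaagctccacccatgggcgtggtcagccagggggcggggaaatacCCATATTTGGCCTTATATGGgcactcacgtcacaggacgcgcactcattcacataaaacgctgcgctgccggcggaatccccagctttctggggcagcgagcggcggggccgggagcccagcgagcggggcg

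Genes for proteins that destroy short-lived messages moved in both directions as called, but none was lower in either fit with the trend. Of 13 mRNA decay regulators tested 4 rose (30.8% against 4.69% of all genes) and 2 fell (15.4% against 6.11%). With the trend removed 4 rose and 0 fell, and with it fitted on all genes 5 rose and 0 fell. Zfp36, which binds AU-rich elements and directs the decay of cytokine mRNAs, had 165, 155, 153 and 164 CPM at 45 min, against 118, 112, 119 and 120 CPM alone, and rose by 0.44 (SE 0.05). Btg2, an antiproliferative protein that recruits the deadenylase, had 55.7, 56.5, 51.7 and 57.4 CPM at 45 min, against 35.6, 33.0, 35.5 and 38.5 CPM alone. It rose by 0.64 (SE 0.079), and neither gene's groups overlapped. Zc3h12a, an RNase for inflammatory messages, rose by 0.29 (SE 0.05). Cnot1, the scaffold of the deadenylase complex, fell by 0.24 (SE 0.046), a call lost with the trend removed (-0.05).

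NF-kB, the transcription factor of many inflammatory stimuli, is held in check by inhibitors that it induces. Of 23 subunits and feedback genes tested, 5 rose and 0 fell, and 7 rose with the trend removed. Tnfaip3, a deubiquitinase also known as A20, had 230, 220, 222 and 229 CPM at 45 min, against 175, 180, 175 and 173 CPM alone. Nfkbid, a nuclear inhibitor protein, had 24.3, 22.7, 20.3 and 25.5 CPM at 45 min, against 16.6, 12, 14.9 and 17.1 CPM alone. No library of one group reached the range of the other, and the rises were 0.36 (SE 0.042) and 0.62 (SE 0.095). Nfkbiz, a related nuclear protein, rose by 0.29 (SE 0.053). The subunit gene Nfkb2 rose by 0.21 (SE 0.063), but not with the trend removed (0.13), without library 2 of 45 min (0.17) or without library 1 of macrophages alone (0.20).

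Chemokines, the secreted proteins that draw leukocytes, were led by Cxcl2. Of 15 tested, 8 rose and 0 fell, with a median of 0.39 and the same counts when the trend was removed. Cxcl2, which attracts neutrophils, had 149, 147, 138 and 139 CPM at 45 min, against 63.7, 55.3, 59.8 and 57.6 CPM alone. The groups were apart by more than the spread within either, and the rise was 1.28 (SE 0.057, adjusted p = 2.53e-26, edgeR's quasi-likelihood test, Benjamini-Hochberg method). Ccl3 and Ccl4 encode macrophage inflammatory proteins. Ccl3 had 116, 101, 107 and 115 CPM at 45 min, against 72.5, 61.5, 74.3 and 69.7 CPM alone, and rose by 0.66 (SE 0.062). Ccl4 had 78.2, 72.4, 66.7 and 77.2 CPM at 45 min, against 44.1, 41.7, 50.3 and 42.3 CPM alone, and rose by 0.72 (SE 0.069). Ccl7, a monocyte attractant and the most abundant of those named, rose by 0.43 (SE 0.041), with 869 to 928 CPM at 45 min and 653 to 683 CPM alone. Cxcl2 averaged 56.6 CPM at 90 min, close to the 59.1 ± 3.55 CPM of macrophages alone, whereas Ccl7 averaged 1110 CPM at that time.

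The promoter of Cxcl2 is shown for the NF-kB site known to drive it. The window is chr5:90903649-90903948 on the plus strand of GRCm38.p6 (RefSeq), and capitals mark the site, read as 2 overlapping matches at -97 to -88 and -96 to -87.
Cxcl2: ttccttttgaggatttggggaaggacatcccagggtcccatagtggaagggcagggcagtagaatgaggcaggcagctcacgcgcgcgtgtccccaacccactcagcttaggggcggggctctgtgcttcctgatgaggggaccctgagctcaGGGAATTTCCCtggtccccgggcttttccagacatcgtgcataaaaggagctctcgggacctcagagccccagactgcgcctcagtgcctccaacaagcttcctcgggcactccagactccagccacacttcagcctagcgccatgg

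The motifs were counted on both strands of the RefSeq windows, which could be matched by symbol for 9650 of 14163 symbols tested. A gene with several listed starts held a motif if any window did. The CArG box was found for 1.45% of the genes tested, 17 of 524 genes that rose (3.24%) and 8 of 488 that fell (1.64%). The core site TGACG was found for 35.6% of the genes tested, 221 of 524 that rose (42.2%) and 161 of 488 that fell (33%). NF-kB sites were found for 6.05%, 8.21% and 5.53%. Over all 27025 genes with a window the shares were 1.81%, 23% and 5.14%. Among the EGR, AP-1, NR4A, Kruppel-like and other early genes, the core site was found for 16 of 25 that rose (64%) and for 28 of 44 tested (63.6%). For these early genes the CArG box was found for 1 of 25 (4%) and 1 of 44 (2.27%), the gene being Egr2. NF-kB sites were found for 6 of 25 (24%) and 7 of 44 (15.9%). A match of letters is a description of the window and shows no binding.

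Cytokine genes rose in 6 of 16 tested cases and fell in 0, and 5 rose with the trend removed. Tnf, the tumour necrosis factor gene, had 189, 173, 174 and 182 CPM at 45 min, against 129, 107, 124 and 123 CPM alone, and rose by 0.57 (SE 0.051). Osm, an interleukin 6 family cytokine, had 30.1, 34.1, 27.0 and 32.7 CPM at 45 min, against 16.3, 16.4, 16.6 and 15.4 CPM alone, and rose by 0.94 (SE 0.092). For both genes every 45 min library was above every library of macrophages alone. Il1rn, the antagonist of interleukin 1, rose by 0.23 (SE 0.043) from a high level, with 1327 ± 87.4 CPM at 45 min and 1130 ± 70.8 CPM alone. Il1b had 19.6, 14.9, 16 and 19.2 CPM at 45 min, against 13.6, 12.9, 14 and 10.6 CPM alone, and its rise of 0.45 (SE 0.12) lost its call without the fourth library of macrophages alone (0.39). The anti-inflammatory Il10 had 5.24, 3.0, 3.01 and 2.47 CPM at 45 min, against 1.37, 1.72, 1.66 and 1.66 CPM alone. The first 45 min library was the highest, and the rise of 1.10 (SE 0.32) was not called without it (0.83) or with libraries thinned (1.05). Il10 averaged 1.40 CPM at 90 min and 1.21 CPM at 180 min.

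Growth factors and endothelin rose in 4 of 13 tested cases and fell in 0, and 5 rose with the trend removed. Edn1, the vasoconstrictor endothelin, had 7.76, 6.37, 6.97 and 7.0 CPM at 45 min, against 1.77, 2.94, 3.85 and 2.52 CPM alone, and rose by 1.34 (SE 0.21). The blood vessel factor Vegfa rose by 0.34 (SE 0.05) and the stress cytokine Gdf15 by 0.67 (SE 0.12). Of 12 TGF-beta and BMP feedback and ID genes, 4 rose and 0 fell, and 2 rose with the trend removed. Id2, a helix-loop-helix inhibitor of transcription factors, had 207, 195, 195 and 203 CPM at 45 min, against 148, 150, 156 and 148 CPM alone, and rose by 0.41 (SE 0.044). The groups of Edn1 and of Id2 did not overlap. Id1, Id3 and the inhibitory Smad7 rose by 0.65 (SE 0.17), 0.71 (SE 0.22) and 0.41 (SE 0.11) at 4 to 12 CPM. Each of these 3 calls depended on the setting. That of Id1 was lost with the trend removed (0.51) or with libraries thinned (0.61), and that of Smad7 with libraries thinned (0.38) or with the trend fitted on all genes (0.30). That of Id3 was lost with the trend removed (0.57) and without library 1 or 4 of 45 min (0.68 and 0.69) or 3 or 4 of macrophages alone (0.56 and 0.69).

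Lipid mediators and polyamines each had 1 clear rise. Ptgs2, the inducible cyclooxygenase, had 37.3, 34.1, 39.3 and 39.3 CPM at 45 min, against 26.2, 21.2, 25.7 and 27.6 CPM alone, and rose by 0.58 (SE 0.086). Of 13 genes of the prostaglandin and leukotriene pathway 2 rose and 0 fell, the other being Alox5ap, which presents arachidonate to 5-lipoxygenase (0.19, SE 0.046, and 0.07 and not called with the trend removed). Odc1, which makes putrescine and so limits the rate of polyamine synthesis, had 129, 118, 121 and 130 CPM at 45 min, against 76.2, 77.0, 85.0 and 76.9 CPM alone, and rose by 0.66 (SE 0.055). The groups of Ptgs2 and of Odc1 did not overlap. Of 17 polyamine genes 3 rose and 0 fell, and 2 rose with the trend removed. Sat1, which acetylates polyamines for export, rose by 0.16 (SE 0.047), a call lost with the trend removed (0.12), with libraries thinned (0.13) and without library 1 of macrophages alone (0.14).

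**Figure D3:**
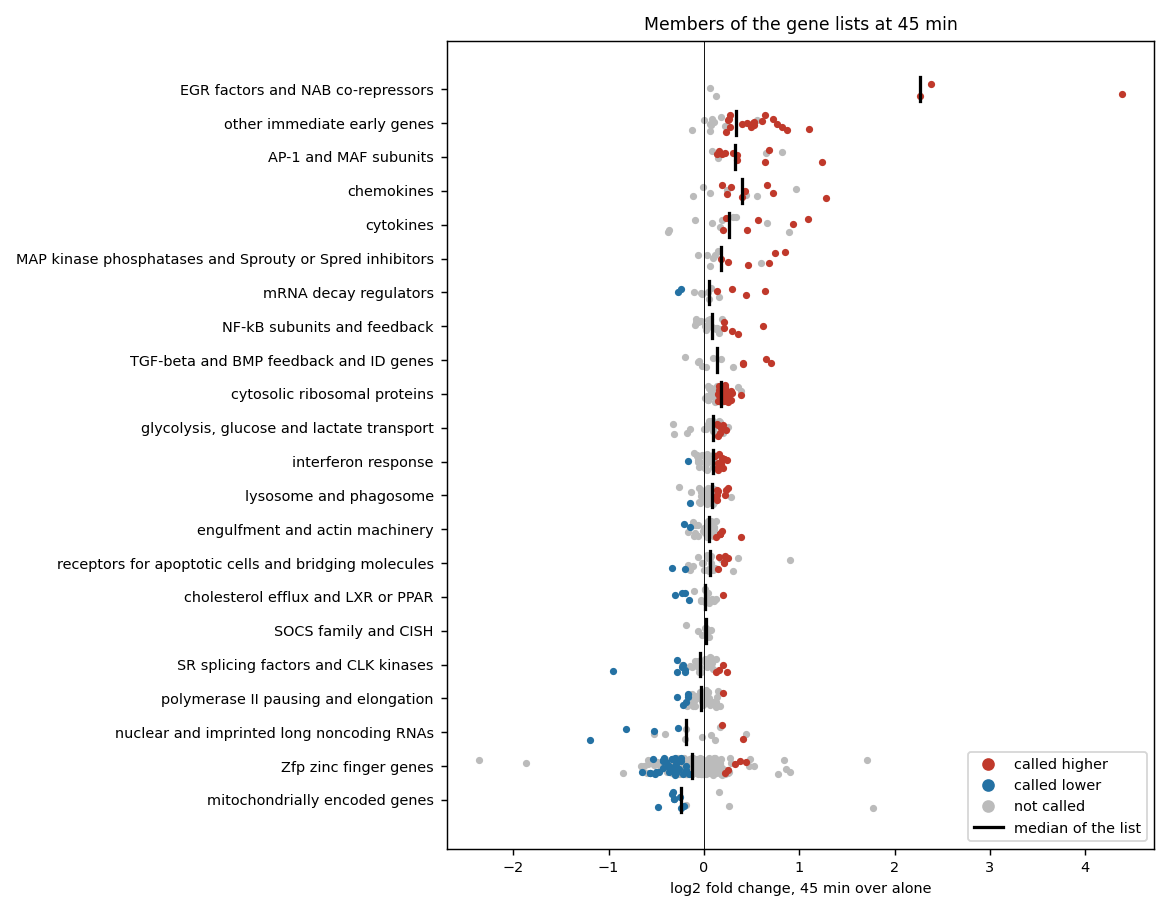
Log2 fold change at 45 min over macrophages alone for each tested member of 22 gene lists, coloured by call in edgeR's quasi-likelihood test (red higher, blue lower, grey not called), with the list median as a black bar. EGR factors have a median of 2.27, chemokines 0.39 and mitochondrially encoded genes -0.24.

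Genes of the efferocytosis machinery itself that were called at 45 min had changed by small amounts. Of 29 genes for receptors of dying cells and for bridging proteins, 6 rose (20.7% against 4.69% of all genes) and 2 fell (6.9% against 6.11%), and with the trend removed 3 rose and 2 fell. Mertk, a receptor kinase that binds dying cells through bridging proteins, had 80.4, 81.1, 85.2 and 78.7 CPM at 45 min, against 89.6, 86.9, 88.9 and 85.7 CPM alone. The groups did not overlap, but the difference of -0.11 (SE 0.052) was not called (adjusted p = 0.181, edgeR's quasi-likelihood test, Benjamini-Hochberg method). The related Axl (-0.06, SE 0.083) was not called either. Lrp1, a large scavenger receptor that works with calreticulin, had 1026, 1144, 931 and 1036 CPM at 45 min, against 1415, 1258, 1280 and 1255 CPM alone, and fell by 0.33 (SE 0.05). Trem2, a lipid receptor, and Cd300lf, a receptor for phosphatidylserine, rose by 0.21 (SE 0.044) and 0.22 (SE 0.047). C1qb, a chain of the complement protein that coats dying cells, rose by 0.21 (SE 0.045) but not with the trend removed (0.06). Of 38 genes of engulfment and actin machinery 6 rose (15.8%) and 2 fell (5.26%). With the trend removed 2 rose and 1 fell, and with it fitted on all genes 10 rose and 2 fell. Without library 3 or 4 of 45 min, or library 1 or 3 of macrophages alone, 1 fell. Coro1a, an actin-binding protein of phagosomes, rose by 0.38 (SE 0.049). The actin monomer binder Pfn1 (0.19) and the GTPase Rac2 (0.17) rose and the lipid kinase subunit Pik3ca fell by 0.21, calls that were lost with the trend removed (0.05, 0.09 and -0.09).

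Of 43 lysosome and phagosome genes 8 rose (18.6% against 4.69% of all genes) and 1 fell (2.33% against 6.11%), with a median of 0.09. With the trend removed 11 rose and 0 fell. Without library 2 of 45 min 13 rose. Sqstm1, an adaptor for selective autophagy, averaged 1153 ± 13.6 CPM at 45 min and 983 ± 5.85 CPM alone, and rose by 0.23 (SE 0.038). Atp6v0c, a subunit of the proton pump, rose by 0.25 (SE 0.047) and the protease Ctsb by 0.13 (SE 0.03). Cyba, a subunit of the phagocyte oxidase, rose by 0.22 (SE 0.05), a call lost with the trend removed (0.08). Of 18 genes of cholesterol efflux and of the LXR and PPAR receptors 1 rose (5.56%) and 4 fell (22.2%). With the trend removed 0 rose and 3 fell. Without library 3 or 4 of 45 min, or library 1 or 2 of macrophages alone, 2 fell. Abca1, the pump that exports cholesterol, had 689, 706, 651 and 695 CPM at 45 min, against 855, 846, 839 and 844 CPM alone. It fell by 0.30 (SE 0.039) with no overlap between the groups. The co-repressor Ncor1 fell by 0.23 and the receptor Nr1h2 rose by 0.20, and neither call held with the trend removed (-0.11 and 0.09).

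Innate sensing and interferon genes moved by small amounts. Of 39 interferon response genes 13 rose and 1 fell, with a median of 0.09. With the trend removed 5 rose and 0 fell, and with it fitted on all genes 22 rose and 1 fell. Slfn2, a Schlafen protein gene, and the nucleotide kinase Cmpk2 rose by 0.21 (SE 0.039) and 0.17 (SE 0.037). The antiviral tether Bst2 and the RNA sensor Dhx58 rose by 0.21 and 0.19, but not with the trend removed (0.08 and 0.11). Of 22 Toll-like receptors and adaptors 5 rose (22.7%) and 2 fell (9.09% against 6.11% of all genes). With the trend removed 1 rose and 3 fell. Without library 1 or 4 of 45 min, or library 1 of macrophages alone, 3 rose. Cd14, the co-receptor for endotoxin, rose by 0.39 (SE 0.049), with 177 ± 8.97 CPM at 45 min and 135 ± 5.29 CPM alone. Tlr8 fell by 0.18 (SE 0.045), but not with the trend fitted on all genes (-0.01).

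In glycolysis and in glucose and lactate transport 7 of 27 gene IDs rose and 0 fell, and with the trend removed 2 rose and 1 fell. The glucose transporter Slc2a1 rose by 0.23 (SE 0.052), with 122 ± 3.4 CPM at 45 min and 104 ± 6.88 CPM alone. The enzymes Pgk1 (0.20) and Gapdh (0.17) were not called with the trend removed (0.12 and 0.11), and the lactate transporter Slc16a1 was not called at all (0.20, SE 0.095). Of 17 solute carriers 1 rose (5.88% against 4.69% of all genes) and 1 fell (5.88% against 6.11%), near the shares of all genes. The one that fell was Slc5a3, the carrier of the osmolyte inositol, with 4.98, 8.24, 3.67 and 5.76 CPM at 45 min against 9.70, 8.85, 9.97 and 10.7 CPM alone. Its fall was 0.78 (SE 0.16), and the second 45 min library came closest to the other group. Of 22 genes of the integrated stress response 5 rose and 0 fell, and 3 rose with the trend removed. Ppp1r15a, the phosphatase subunit that ends this response, rose by 0.40 (SE 0.064), and Chac1, which breaks down glutathione, by 0.73 (SE 0.18). The pseudokinase Trib3 rose by 0.27 but not with the trend removed (0.13).

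Genes for the protein synthesis and degradation machinery were slightly higher. Their median summed exon length was 1806 bases for ribosomal proteins and 2814 bases for proteasome subunits. Of 80 cytosolic ribosomal protein genes 40 rose and 0 fell, with a median of 0.18. With the trend removed 12 rose, with a median of 0.08, and with it fitted on all genes 41 rose. Rplp0, of the ribosomal stalk, had 484, 446, 470 and 484 CPM at 45 min, against 410, 378, 383 and 398 CPM alone, and rose by 0.26 (SE 0.046). The groups did not overlap, and Rpl19 rose by 0.39 (SE 0.073). These genes share reads with near-identical pseudogene copies, so their single values are uncertain. Of 38 proteasome subunits 11 rose and 0 fell. With the trend removed 0 rose, and with it fitted on all genes 14 rose. Without library 4 of 45 min 6 rose, and without library 4 of macrophages alone 7. Psmb6, a catalytic subunit, rose by 0.24 (SE 0.054) and stood at 0.13 with the trend removed.

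Mitochondrially encoded genes went the other way. They took 3.34% to 3.76% of counts per library at 45 min and 4.21% to 4.71% alone, and the ranges did not overlap. Of 12 tested 8 fell and 0 rose by edgeR, with a median of -0.24, and 7 fell with the trend removed. DESeq2 called 2 lower, mt-Rnr2 and mt-Co1, and 1 higher, and 1 was higher at an unadjusted p under 0.05. Without library 1 or 3 of 45 min, or library 1 or 4 of macrophages alone, 4 fell. The ribosomal RNA mt-Rnr2 had 28574, 27152, 26406 and 25405 CPM at 45 min, against 32846, 36185, 32399 and 34648 CPM alone, and fell by 0.34 (SE 0.04). The oxidase subunit mt-Co1 fell by 0.31 (SE 0.058). With the trend fitted on all genes neither was called, and mt-Rnr2 changed sign (0.07 and -0.08). The share was 5.12% to 6.40% at 90 min and 6.44% to 7.75% at 180 min, above the ranges at 45 min and alone.

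Factors of polymerase II pausing and elongation, the step named in the series title, moved by small amounts. Of 42 tested 1 rose and 5 fell (11.9% against 6.11% of all genes), with a median of -0.03, and with the trend removed 2 rose and 2 fell. Without library 1, 3 or 4 of 45 min 3, 3 and 2 fell, and without library 2 of macrophages alone 3 fell. Cdk9, the kinase that releases paused polymerase, had 96.5, 97.2, 90.4 and 100 CPM at 45 min, against 92.7, 80.5, 83.7 and 76.9 CPM alone. Its rise of 0.20 (SE 0.055) was called although the first library of macrophages alone lay inside the 45 min range. Hexim1, which holds CDK9 inactive, was not called (0.05, SE 0.058). Polr2a, the largest polymerase subunit, had 358, 401, 336 and 373 CPM at 45 min, against 457, 419, 464 and 441 CPM alone, and fell by 0.28 (SE 0.048). The elongation kinase Cdk12 fell by 0.22 and the scaffold Aff4 by 0.17, calls lost with the trend removed (-0.11 and -0.01), and Aff4 also without library 1, 3 or 4 of 45 min or library 2 of macrophages alone (-0.15 to -0.14). Ppp1r10, which anchors the phosphatase PP1 in the nucleus and was chosen after its values were seen, rose by 0.54 (SE 0.048), with 133 ± 6.88 CPM at 45 min and 91.7 ± 1.38 CPM alone. Of 31 SR splicing factors and CLK kinases 4 rose and 7 fell, and with the trend removed 5 rose and 2 fell, so the balance between directions changed with the trend. Srsf5 rose by 0.24 (SE 0.049) and Srrm2, a spliceosome scaffold, fell by 0.28 (SE 0.044). The splicing cofactor Son fell by 0.20 but not with the trend removed (-0.05). Rbm4 had 2.98, 2.62, 2.97 and 2.74 CPM at 45 min, against 5.05, 4.66, 6.42 and 5.69 CPM alone, and fell by 0.95 (SE 0.20).

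Long noncoding RNAs of the nucleus moved both ways. Of 15 tested 2 rose and 4 fell, and with the trend removed 3 rose and 4 fell. Kcnq1ot1, an imprinted antisense RNA, had 34.8, 46.9, 38.8 and 36.9 CPM at 45 min, against 99.5, 85.7, 72.5 and 102 CPM alone. It fell by 1.19 (SE 0.086), by 0.58 with the trend removed. Airn, another imprinted antisense RNA, had 4.29, 3.10, 3.63 and 3.22 CPM at 45 min, against 6.42, 5.25, 5.36 and 8.10 CPM alone, and fell by 0.82 (SE 0.19). Both overlap other genes, and the sources used here do not say whether counting used strand, so their values are uncertain. Xist, the RNA that silences an X chromosome, fell by 0.53 (SE 0.06), with 704 to 910 CPM at 45 min and 1077 to 1182 CPM alone. The fall was 0.29 with the trend removed and 0.25 with the trend fitted on all genes, and it was called in both. Neat1, the scaffold of paraspeckles, had 449, 613, 544 and 489 CPM at 45 min, against 384, 454, 346 and 388 CPM alone, and rose by 0.41 (SE 0.072) although the groups overlapped. Malat1, of nuclear speckles, rose by 0.18 (SE 0.055), with 10906 to 14056 CPM at 45 min and 9989 to 12000 CPM alone. Its call was lost under DESeq2 (0.19), without library 2 of 45 min (0.13) and without library 1 or 3 of macrophages alone (0.17 each). Mir22hg, the host RNA of a microRNA, rose by 0.53 (SE 0.08).

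Noncoding genes that sit within a coding gene of the same strand and touch none of its exons held most of the large falls. Overlap with exons of other genes was not checked. Of 1000 tested 4 rose and 211 fell, 173 of them at least 2-fold, with a median of -0.71 against 0.02 for coding genes. With the trend removed 188 fell and the median was again -0.71. The expression filter can be passed through 4 libraries of any group, so a gene scarce at 45 min could enter through another group. The part of this in the medians and in the comparison with hosts was not tested. All genes of this class, tested or not, took 0.124% to 0.156% of counts at 45 min and 0.174% to 0.212% alone. These ranges did not overlap. Their host genes differed by less. For the 966 with a tested host, called or not, the median was -0.72, and for the 714 hosts it was -0.04, with 30 hosts higher and 113 lower. Of these 966, 798 had a log2 change below that of their host. At 90 and 180 min the share was 0.191% to 0.248% and 0.187% to 0.247%.

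**Figure D4:**
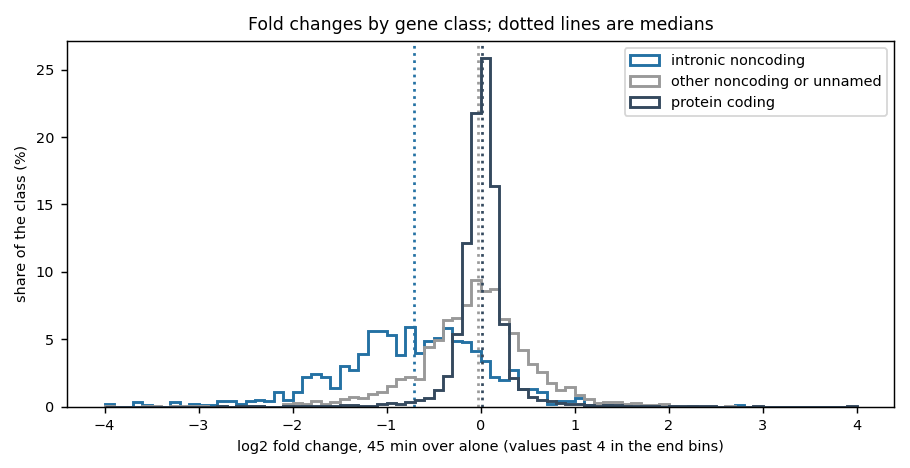
Distribution of the log2 fold change at 45 min over macrophages alone for intronic noncoding genes (blue), coding genes (dark) and other noncoding or unnamed genes (grey), as a share of each class. Intronic noncoding genes centre on -0.71 and coding genes on 0.02, the dotted medians.

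Of the 11425 coding genes tested, 11 rose and 11 fell at least 2-fold. Among those that met the rule for naming, the 15 largest falls ran from -0.96 to -0.59 and the 15 largest rises from 0.82 to 4.39. Ahnak, which encodes a giant scaffold protein, had 927, 944, 846 and 965 CPM at 45 min, against 1446, 1447, 1497 and 1419 CPM alone. The groups did not overlap, which the rule required, and it fell by 0.66 (SE 0.048), by 0.44 with the trend removed. Kmt2d, a histone H3 methyltransferase with a very long transcript, had 361, 374, 278 and 350 CPM at 45 min, against 564, 504, 523 and 516 CPM alone, and fell by 0.63 (SE 0.065). Fry, a long gene of cell shape, fell by 0.63 (SE 0.11), by 0.36 with the trend removed. Klhl42, an adaptor of a ubiquitin ligase, had 5.27, 6.13, 6.51 and 5.30 CPM at 45 min, against 9.38, 10.8, 10.6 and 10.5 CPM alone, and fell by 0.83 (SE 0.13). Of 323 Zfp zinc finger genes, many of them repressors, 5 rose and 36 fell (11.1% against 6.11% of all genes), and with the trend removed 3 rose and 11 fell (3.3% of all genes fell in that fit). Without library 1, 3 or 4 of 45 min 18, 21 and 17 fell, and without library 2, 3 or 4 of macrophages alone 19, 23 and 20. Zfp652 and Zfp871 fell by 0.34 (SE 0.057) and 0.31 (SE 0.054), the second not with the trend fitted on all genes (-0.07). Mybpc3, a sarcomere protein gene, was among the rises, with 2.45, 3.47, 2.27 and 2.11 CPM at 45 min and 0.866, 1.8, 1.13 and 0.483 CPM alone (1.24, SE 0.28).

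The SOCS genes, Adora2b and Txnip were not called at 45 min as counted. Of 9 SOCS family genes, which inhibit cytokine signalling, 0 rose and 0 fell by edgeR, by DESeq2 or at an unadjusted p under 0.05. Their log2 changes ran from -0.19 to 0.07. With the trend removed 0 rose, and with it fitted on all genes 2 rose. Adora2b, a receptor for extracellular adenosine chosen after its values were seen, had 2.39, 2.21, 2.27 and 1.84 CPM at 45 min, against 1.84, 1.49, 1.32 and 2.04 CPM alone. The groups overlapped and it was not called (0.39, SE 0.19), and it stood at 8.91 to 12.4 CPM at 90 min and 13.6 to 17.9 CPM at 180 min. Of 17 genes of adenosine receptors and cyclic AMP signalling 2 rose and 0 fell, one being the prostaglandin receptor Ptger4 (0.35, SE 0.066). Txnip, which binds thioredoxin and limits glucose uptake, had 287, 280, 293 and 275 CPM at 45 min, against 271, 260, 287 and 288 CPM alone. The groups overlapped, with a difference of 0.04 (SE 0.051) that turned to -0.01 with the trend removed, and the mean was 124 CPM at 90 min. Of 7 members of its family 0 rose and 2 fell, among them Arrdc3, an arrestin-like adaptor (-0.36, SE 0.065).

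**Figure D5:**
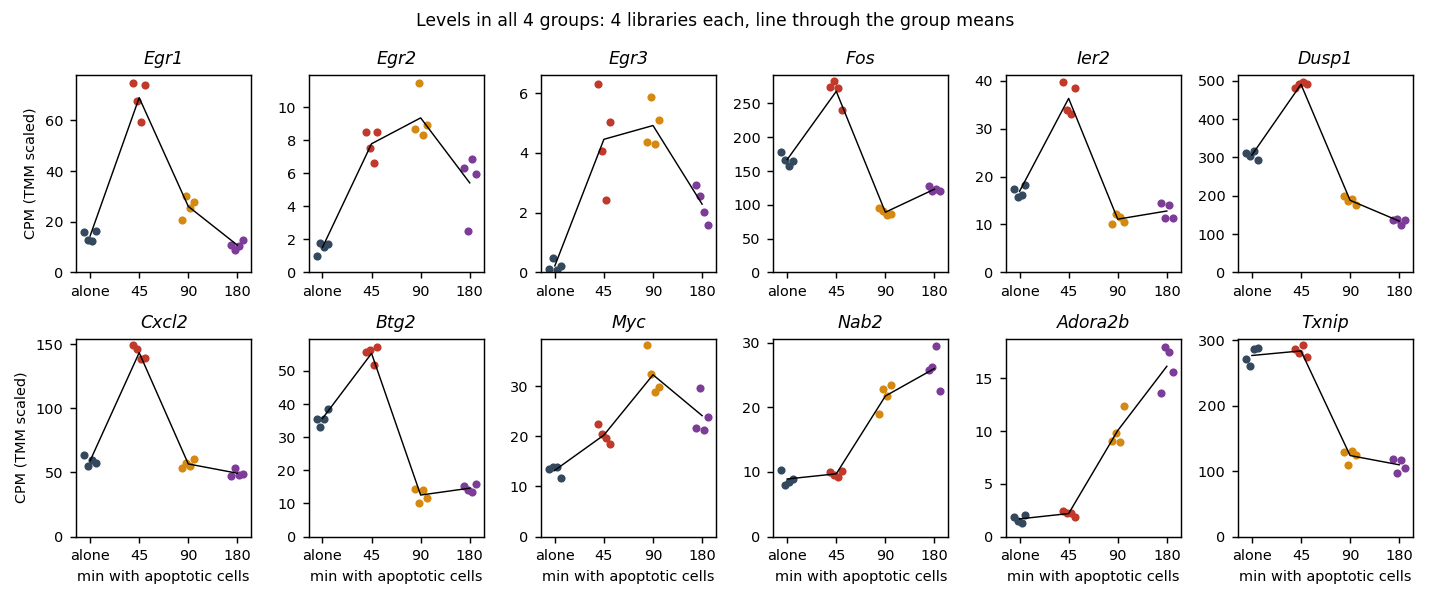
CPM of 12 genes in each library of macrophages alone and at 45, 90 and 180 min with apoptotic cells, with a line through the group means. Egr1, Fos, Ier2, Dusp1, Cxcl2 and Btg2 are highest at 45 min, Myc at 90 min, and Nab2, Adora2b and Txnip stand near macrophages alone at 45 min and apart from them later.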

How the data were processed

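Total RNA depleted of ribosomal RNA was made into libraries with a directional kit, per the labels' protocols. The authors deposited raw counts per gene for 16 libraries, with no scaling applied. STAR 2.7.9a, SAMtools and HTSeq and the build mm39 are named, without their settings, per the submitters' processing notes. Strand setting, annotation release and treatment of human reads: not given in the sources used here. Columns name groups without replicate numbers, so libraries 1 to 4 are names in file order.

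Of 55416 gene IDs 25663 had a count and 14168 passed edgeR's filter (minimum count 10, total 15). Symbols, classes, lengths and GC content came from GENCODE M21, made for the build before mm39, with symbols for 52083 IDs. TMM factors scaled the library sizes. In R 4.3.3, edgeR 4.0.16 fitted its quasi-likelihood model to all 16 libraries, with an F test of 45 min against alone, Benjamini-Hochberg adjusted over all genes. Fold changes are unshrunk coefficients, and each standard error follows from the coefficient and its F. CPM are counts per 1000000 of the scaled library size. Pairs of libraries of a group differed by more than sampling noise (chi-square per degree of freedom 3.842 to 9.554). The length and GC trend was a natural spline (5 degrees of freedom each) of log2 CPM (prior count 2), for coding genes with average log2 CPM of at least 1, entered as offsets. Simulated data were used to test the scripts.

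Genes named were the 15 largest rises and falls of coding genes called, with average log2 CPM of at least 1 and no overlap, the 10 smallest p-values, 5 noncoding genes each way by the same limits, up to 4 members with the smallest p of each list, all members of lists of 6 or fewer, chosen early, cytokine, efferocytosis and pausing genes, and the markers. Members and lists were chosen with earlier results of these data known, and lists share members. Alternatives were DESeq2 1.42.0, other scalings, filters, gene sets and library sets, thinning, and the trend.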

Additional observations from a re-analysis of the deposited data

Results flagged for a closer look

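Some genes were called in opposite directions at 45 and 90 min, both against macrophages alone, and differed between the times by edgeR's quasi-likelihood test. The comparisons share the macrophages alone. Fos, Ier2, Ier3, Dusp1 and Btg2 had risen at 45 min and were below macrophages alone at 90 min. Their log2 differences, 90 min minus 45 min, were -1.59 for Fos, -1.71 for Ier2, -0.93 for Ier3, -1.38 for Dusp1 and -2.15 for Btg2. The mitochondrial ribosomal RNA mt-Rnr2 and the adaptor gene Klhl42 had fallen at 45 min and were above macrophages alone at 90 min, with differences of 0.72 and 1.19. The fall of mt-Rnr2 changed sign with the length and GC trend fitted on all genes (0.07).

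In 3 of 120 groups of 4 libraries checked, 1 library stood far from the other 3, where chance puts about 1 in 20 groups. They were Junb at 45 min, with one library at 277 CPM and the others at 241 to 247 CPM, Odc1 in macrophages alone, at 85 CPM in one library, and Lrp1 in macrophages alone, at 1415 CPM in one library. The groups of these 3 genes do not overlap.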

How the results depend on the processing

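The counts of 664 genes higher and 865 lower stayed within 1.5 times under DESeq2 (786 and 944), other scalings, filters, gene sets, thinning and the fit of 8 libraries alone. With the length and GC trend removed they were 414 and 468, and with the trend fitted on all genes 1107 and 503. Without 1 library they ran from 534 to 767 and from 541 to 767, with fewer samples in the fit. Of 121 named genes called, 85 were called under all 19 alternatives, and 28 of the other 36 were lost with the trend removed. Direction turned for Txnip (-0.012, trend removed), mt-Rnr2 (0.074) and Csf1r (-0.032, both with the trend fitted on all genes). The cause was not tested. No paired analysis was possible because the columns carry no replicate number. Of genes at a few CPM, Il10, Id1 and Id3 lost their calls under some alternatives, whereas Egr3 and Mybpc3 were called under all. Of the lists with 4 or more members called in a direction, DESeq2 moved the count by over 1.5 times for mitochondrially encoded genes alone (2 lower, against 8).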

Other observations

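Further gene groups were described by the same counts, as rises and falls at 45 min with 4.69% of all genes tested higher and 6.11% lower. Of 24 myeloid transcription factors 6 rose and 0 fell, with or without the length and GC trend. Ets2, a target of MAP kinase signalling, rose by 0.32 (SE 0.042), with 347 ± 11.3 CPM at 45 min and 278 ± 7.41 CPM alone (SD, n = 4 each). The basic leucine zipper factors Cebpb and Nfil3 rose by 0.27 (SE 0.049) and 0.49 (SE 0.097). Spi1, the master factor of myeloid cells, rose by 0.17 but not with the trend removed (0.04). Of 17 circadian clock genes 5 rose and 0 fell, and 3 rose with the trend removed. Without library 1 of 45 min, or library 3 or 4 of macrophages alone, 3, 2 and 3 clock genes rose. Per1, a clock repressor that also responds early to stimuli, rose by 0.53 (SE 0.062), and the clock repressor Bhlhe40 by 0.28 (SE 0.053). Of 27 cytokine and growth factor receptors 2 rose and 2 fell. Csf2ra, the receptor chain for GM-CSF, rose by 0.29 (SE 0.055), and the BMP receptor Bmpr2 fell by 0.34 (SE 0.053), a call lost with the trend removed (-0.10). Of 14 receptors for signals from dying cells 2 rose and 1 fell.

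Of 24 sterol synthesis genes 1 rose and 0 fell, the one being the epoxidase Sqle (0.32, SE 0.082). Of 25 NRF2 targets and antioxidant genes 6 rose and 0 fell. With the trend removed 2 rose, and with it fitted on all genes 8 rose. Nuclear genes of the respiratory chain rose in 10 of 78 cases and fell in 0, with the complex I subunit Ndufa13 at 0.37 (SE 0.084). With the trend removed 1 rose, when Ndufa13 was not called (0.22), and with it fitted on all genes 15 rose. Without library 2 of 45 min 16 rose, and without library 4 of macrophages alone 6. Mitochondrial ribosomal proteins rose in 5 of 77 cases and fell in 0, and 1 to 3 rose without library 1, 3 or 4 of 45 min or library 1, 2 or 4 of macrophages alone. Of 27 heat shock proteins and chaperonins 1 rose and 0 fell, with 8 higher when the trend was fitted on all genes. Without library 1 or 2 of macrophages alone 0 of them rose. Of 12 hosts of small nucleolar RNAs 1 rose and 0 fell, and 0 rose with the trend removed. For these hosts 0 rose without library 2, 3 or 4 of 45 min or library 1, 3 or 4 of macrophages alone. Of 52 replication histones, which share reads with near-identical copies, 0 rose and 1 fell. Of 18 BCL2 family genes 0 rose and 0 fell by edgeR in the fit of 16 libraries. There 3 were higher and 2 lower at an unadjusted p under 0.05, and DESeq2 called 1 each way. In the fit of 8 libraries alone edgeR called 3 higher and 1 lower, and without library 3 of macrophages alone 2 higher.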
